A study of Mus musculus with 24 samples.

Results

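The 10 genes described here encode the mitotic cohesin complex of the mouse and the proteins that load it onto DNA, acetylate it and stabilise it, namely Smc1a, Smc3, Rad21, Stag1, Stag2, Pds5a, Pds5b, Nipbl, Esco2 and Cdca5. They were picked by gene symbol from the 22180 genes that the platform annotation names on the array, and each was read by 1 probe set that the annotation assigns to that gene alone. All 10 were among the 9908 genes tested, which had to reach an RMA intensity (the normalized brightness of a probe set) of 20 in at least 2 of the 24 arrays. Esco2 reached it on 13 arrays, Cdca5 on 23 and the others on all 24. Esco2 therefore passed this minimum only through the groups in which it was high.

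Cohesin is a ring. The coiled-coil ATPases SMC1A and SMC3 are closed by the kleisin RAD21, and the HEAT-repeat proteins STAG1 or STAG2 and PDS5A or PDS5B bind to RAD21. NIPBL loads the ring onto chromatin, where it folds the interphase genome into loops. While DNA is copied, ESCO2 acetylates SMC3 and sororin, the product of Cdca5, binds PDS5 and counters the release factor WAPL, so that sister chromatids stay paired until separase cuts RAD21 in mitosis.

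RNA was taken from early passage mouse embryonic fibroblasts (MEF), primary cells for which no strain, genotype or number of embryos is given in the sources used here. One group was unsynchronised in 10% foetal calf serum, and the other cells were starved for 48 h in low serum (0.5% by the protocol and 0.1% by the series' design text) and harvested at 0 h or at 17 times from 0.5 h to 30 h after return to 10% serum. The unsynchronised, 0, 12, 18 and 24 h groups had 2 arrays each, called biological replicates in the labels, and 14 times had 1 array. Nothing says that the duplicates came from separate cultures, so the p-values reflect no more than how far these arrays lie apart, and that spread may be technical.

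All 10 fibroblast markers were high on every array, with Col1a1 between 1927 and 3133. Of 10 macrophage and leukocyte markers, 8 had a median intensity of 20 or more, while Ptprc, which all leukocytes carry, had a median of 12.2. All 10 summed to 1564 to 2171 at 0 h, 1088 to 1337 at 24 h and 943 to 1018 in unsynchronised cells. Lyz2 was the brightest of them (median 793.4). The sum of the 10 fibroblast markers was also lower at 24 h (18680 to 18760) and in unsynchronised cells (14860 to 15080) than at 0 h (21280 to 22540). Endothelial and epithelial markers had medians under 20. The 3 neural markers summed to 89.3 to 95.5 at 0 h and to 210.4 to 232 at 24 h, carried by Tubb3 (median 144.7) and Nes (37.9), with Sox2 at a median of 6.82. The 3 muscle markers summed to 47.8 to 59.1 at 0 h and to 55.1 to 69.9 at 24 h, with Des at a median of 45.4 and Myod1 at 6.25. The part of these cells in the results below was not tested, and in bulk RNA fewer cells of a type and less RNA per cell cannot be told apart. The 0 h duplicates differed most among the 5 pairs (r = 0.970 over genes, against 0.986 to 0.992), and the 26 h array stood apart from its neighbours, with 25% of genes more than 0.5 log2 units from the mean of 24 and 28 h, against 0.959% to 19.9% at other times.

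**Figure D1:**
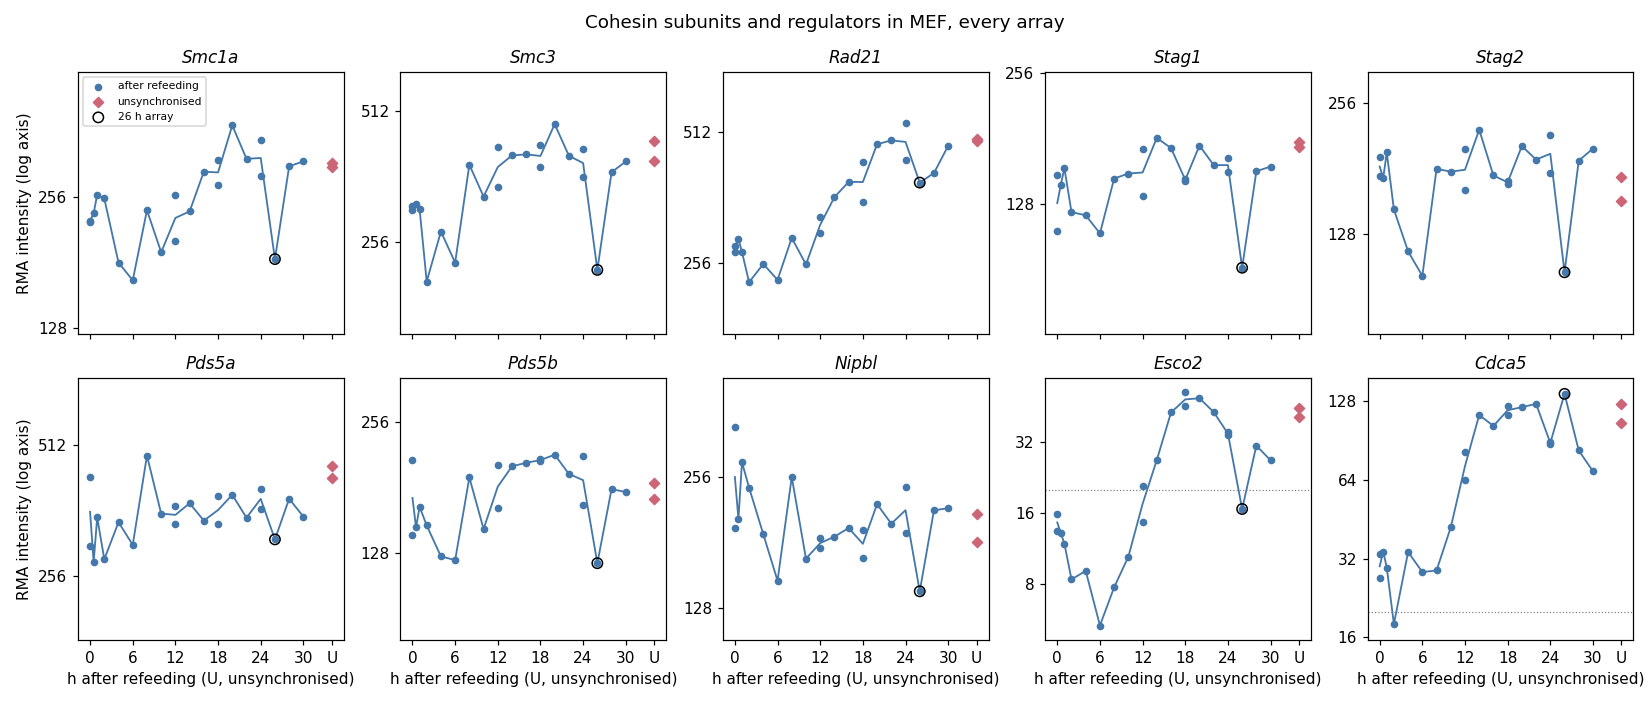
RMA intensity (log axis) of the 10 genes on every array against hours after refeeding, with diamonds for unsynchronised cells (U), a line through the means of log2 values and a dotted line at an intensity of 20. With values under 20 set to 20, group means ranged over 6.82-fold for Cdca5, 2.44-fold for Esco2 and 1.76-fold to 2.30-fold for the other 8, and the circled 26 h array was below the mean of 24 and 28 h for all but Cdca5.

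The 10 genes did not follow 1 course. With a limma F test over the 17 times after 0 h, 6 of 10 varied (43.7% of all genes tested did), and these were Cdca5, Esco2, Rad21, Smc3, Smc1a and Stag2. Stag1, Pds5a, Pds5b and Nipbl did not pass (limma adjusted p = 0.138, 0.463, 0.202 and 0.299). Without the 26 h array Stag2 no longer passed (limma adjusted p = 0.0601), which left 5 of 10. Over group means from 0 h to 30 h, with values under 20 set to 20, the range was 6.82-fold for Cdca5 and 2.44-fold for Esco2. It was 2.12-fold for Rad21, 2.27-fold for Smc1a, 2.30-fold for Smc3 and 2.17-fold for Stag2. Esco2 read as low as 5.36, under the minimum, so its range below 20 has no measured size. The comparisons with 0 h below share the same 2 starved arrays. Statements that arrays lie above, below or apart from those of another group are descriptions of few arrays and no test. The share of all genes whose arrays lie apart was not counted.

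Cdca5, which encodes sororin, was the member higher by 12 h. Its intensity was 26.9 and 33.2 at 0 h and lay between 18.0 and 34.1 from 0.5 h to 8 h. It then read 42.2 at 10 h, 63.8 and 81.8 at 12 h, and 113 at 14 h. From 16 h to 22 h its arrays lay between 103 and 125. Both 12 h arrays were thus above both 0 h arrays, and every array from 12 h on was above every array before 12 h. Sororin transcript was 2.42-fold higher at 12 h than at 0 h (log2 1.27 ± 0.17 SE, n = 2 arrays each, limma adjusted p = 0.000333). At 12 h it was the only 1 of the 10 genes past the threshold of an adjusted p of 0.05, where 18.9% of all genes tested were higher and 11.8% lower. None of the 10 was lower at 12 h, also at an unadjusted p under 0.05 by limma.

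The peak of sororin transcript followed. It was 3.95-fold higher at 18 h (123 and 114, log2 1.98 ± 0.17, limma adjusted p = 2.15e-05) and 2.96-fold higher at 24 h (87.6 and 89.5, log2 1.57 ± 0.17, limma adjusted p = 9.73e-05). At 26 h it read 136, the highest value of its course, on the array on which the other 9 genes were below the mean of 24 and 28 h. It ended at 82.9 and 69.0 at 28 h and 30 h. Unsynchronised cells read 106 and 124, above both 24 h arrays, and the difference of 24 h from them did not pass (log2 -0.37 ± 0.17, 95% interval -0.74 to -0.01, limma adjusted p = 0.257). Each of the 4 rises of Cdca5 against 0 h passed in all 10 fits that left out 1 duplicate array.

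Promoters were looked up for the 10 genes in a RefSeq table of build GRCm38.p6, which held 6 of them: Cdca5, Smc1a, Smc3, Stag1, Pds5a and Pds5b. Each window runs from 250 bases before the gene's start to 50 bases after it. They were searched on both strands for E2F words (TTGGCGC and TTCCCGC as well as TTCGCGC and TTGCCGC), words of the cell cycle homology region or CHR (TTTGAA and TTCGAA) and the CCAAT box, elements known from promoters of S phase and mitotic genes. The promoter of Cdca5 is shown because, of these 6 genes, Cdca5 had the largest change at 12, 18 and 24 h. That of Pds5b is shown because it holds all 3 kinds of word in a gene that passed no test, and that of Smc1a as a core subunit with a smaller rise. Capitals mark the words found on either strand.
Cdca5 promoter, chr19:6084847-6085146, plus strand: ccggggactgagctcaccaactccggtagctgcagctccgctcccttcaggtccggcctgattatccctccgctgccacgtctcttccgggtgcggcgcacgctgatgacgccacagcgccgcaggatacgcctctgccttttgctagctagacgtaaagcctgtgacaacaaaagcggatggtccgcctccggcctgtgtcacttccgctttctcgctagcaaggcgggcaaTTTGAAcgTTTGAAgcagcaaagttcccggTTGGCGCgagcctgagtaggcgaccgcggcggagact
Pds5b promoter, chr5:150673577-150673876, plus strand: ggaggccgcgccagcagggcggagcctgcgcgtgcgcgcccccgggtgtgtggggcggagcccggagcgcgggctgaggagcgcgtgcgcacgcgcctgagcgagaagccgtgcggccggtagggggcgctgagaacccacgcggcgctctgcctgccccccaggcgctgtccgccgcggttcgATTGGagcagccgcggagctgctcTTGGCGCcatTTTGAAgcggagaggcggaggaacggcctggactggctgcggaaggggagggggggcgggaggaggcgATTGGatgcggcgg
Smc1a promoter, chrX:152016178-152016477, plus strand: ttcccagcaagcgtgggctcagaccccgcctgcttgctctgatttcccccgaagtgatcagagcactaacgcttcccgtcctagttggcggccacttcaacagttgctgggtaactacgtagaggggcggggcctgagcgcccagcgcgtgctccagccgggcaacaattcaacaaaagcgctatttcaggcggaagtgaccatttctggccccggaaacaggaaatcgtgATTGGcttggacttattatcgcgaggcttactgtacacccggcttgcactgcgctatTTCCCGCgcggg

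In the Cdca5 promoter the CHR word TTTGAA occurred 2 times, at 17 and 9 bases before the start, and the E2F word TTGGCGC 1 time, 14 bases into the transcript, with no CCAAT. Pds5b held TTGGCGC and TTTGAA at 42 and 32 bases before the start and the CCAAT box 2 times. Smc1a held 1 E2F word and 1 CCAAT box and no CHR. Among the others, Stag1 had 2 E2F words and 1 CCAAT box, Pds5a had 3 E2F words, of which 2 overlap on opposite strands, and Smc3 had none of the words. Of all 32851 promoters in the table, 9.57% held an E2F word, 19.2% a CHR word and 37.4% a CCAAT box. An E2F word together with a CHR word occurred in 1.16%, and all 3 kinds together in 0.499%. These are matches of letters and say nothing of bound factors.

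Esco2, the acetyltransferase of S phase, was low early and rose after 12 h. Its intensity was 15.8 and 13.5 at 0 h, 9.11 at 4 h and 5.36 at 6 h, all under the minimum of 20. It was 14.7 and 20.7 at 12 h, 26.8 at 14 h and 42.4 at 16 h. At 18 h it was 45.0 and 51.6, at 20 h 48.7 and at 24 h 34.2 and 35.0. No array of 18 or 24 h overlapped with those of 0 h, while at 12 h the arrays overlapped. The rise was 3.30-fold at 18 h (log2 1.72 ± 0.18 SE, n = 2 arrays each, limma adjusted p = 6.59e-05) and 2.37-fold at 24 h (log2 1.25 ± 0.18, limma adjusted p = 0.000545). With every value under 20 set to 20, these became 2.41-fold and 1.73-fold, still past the threshold by limma (adjusted p = 0.000323 and 0.00168). The fall at 4 and 6 h, 0.48 of the 0 h level (log2 -1.06 ± 0.18, limma adjusted p = 0.00094), lay wholly under 20 and was a log2 change of 0 on that scale.

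From 12 h to 24 h Esco2 rose by 1.98-fold (log2 0.99 ± 0.18, limma adjusted p = 0.011), whereas sororin did not pass over the same span (63.8 and 81.8 against 87.6 and 89.5, log2 0.29 ± 0.17, limma adjusted p = 0.438). The difference between these changes was not tested. Replicate 1 of 12 h read 14.7 for Esco2, under the minimum of 20. The size of its rise from 12 h to 24 h therefore rests in part on a dim value. Esco2 lost this call without replicate 1 of 12 h, replicate 1 of 24 h or replicate 2 of 24 h (limma adjusted p = 0.0977, 0.0751 and 0.0638). Esco2 read 44.5 and 40.5 in unsynchronised cells, and the lower level at 24 h did not pass (log2 -0.30, 95% interval -0.68 to 0.09, limma adjusted p = 0.41). Against 0 h the unsynchronised cells were 2.91-fold higher (log2 1.54 ± 0.18, limma adjusted p = 7.98e-05). With values under 20 set to 20 this became 2.12-fold (limma adjusted p = 0.000321).

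Rad21, the kleisin that separase cuts, was higher at 18 and 24 h. It read 281 and 271 at 0 h, and between 232 and 293 from 0.5 h to 10 h. It was 301 and 328 at 12 h, 439 and 354 at 18 h and 537 and 441 at 24 h. All 6 of these arrays were above both starved arrays, and the 24 h arrays were above both 12 h arrays. The rise passed at 18 h (1.43-fold, log2 0.51 ± 0.15 SE, n = 2 arrays each, limma adjusted p = 0.0264) and at 24 h (1.76-fold, log2 0.82 ± 0.15, limma adjusted p = 0.00275). The call at 18 h was lost without replicate 1 of 18 h (log2 0.36, limma adjusted p = 0.213) or without either 0 h array (0.0506 and 0.0606). The call at 24 h held in all 10 such fits.

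Rad21 also rose from 12 h to 24 h (1.55-fold, log2 0.63 ± 0.15, limma adjusted p = 0.0481), so that 2 of the 10 genes, with Esco2, were higher at 24 h than at 12 h and none lower, where 1.9% of all genes tested were higher and 1.69% lower. This call of Rad21 lay at the edge of the threshold, and only 2 of the 10 fits that left out 1 array kept it, those without a 0 h array (limma adjusted p from 0.0351 to 0.335 over the 10). None was lower also at an unadjusted p under 0.05 by limma. Unsynchronised cells read 495 and 490.3, 1.78-fold above 0 h (log2 0.83 ± 0.15, limma adjusted p = 0.00143).

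Smc1a and Smc3, the ATPases of the ring, had smaller changes. Smc1a read 226 and 224 at 0 h, 181 at 4 h and 164 at 6 h, and was highest at 20 h with 373. Its 24 h arrays, 346 and 285, were above both 0 h arrays by 1.40-fold (log2 0.48 ± 0.16 SE, n = 2 arrays each, limma adjusted p = 0.0444). Only 3 of the 10 fits that left out 1 array kept this call, those without a 12 h array or without replicate 2 of 24 h, and without replicate 1 of 24 h the change was log2 0.34 (limma adjusted p = 0.256). At 12 h the arrays, 203 and 258, lay on both sides of those at 0 h. At 18 h they read 311 and 272, with no overlap with 0 h, and did not pass (log2 0.37 ± 0.16, limma adjusted p = 0.0987). In unsynchronised cells it read 299.5 and 306, which was 1.35-fold higher than at 0 h (log2 0.43 ± 0.16, limma adjusted p = 0.0486), and 4 of the 10 fits kept that call, those without a 12 h or a 24 h array (limma adjusted p from 0.0426 to 0.16 over the 10).

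Smc3 read 309 and 303 at 0 h, was lowest at 2 h with 208 and highest at 20 h with 478. Its 12 h (343 and 423), 18 h (428 and 381) and 24 h (419 and 361) arrays were all above both 0 h arrays, and none of these 3 comparisons passed (log2 0.32, 0.40 and 0.35, limma adjusted p = 0.137, 0.0679 and 0.117). In unsynchronised cells, with 437 and 394, it was 1.36-fold higher (log2 0.44 ± 0.15, limma adjusted p = 0.0367). Of the 10 fits that left out 1 array, those without a 12 h or a 24 h array kept this call, and 4 did so (limma adjusted p from 0.0354 to 0.188).

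Stag2, a HEAT-repeat subunit bound to RAD21, was low at 4 and 6 h. It was 174 and 193 at 0 h, 146 at 2 h, 117 at 4 h and 103 at 6 h, and 181 again at 8 h. Both the 4 h and the 6 h array were below both 0 h arrays, at 0.60 of their level (log2 -0.74 ± 0.16 SE, 2 arrays against 2, limma adjusted p = 0.0042). With Esco2, whose fall lay wholly under an intensity of 20, this made 2 of the 10 genes lower at 4 and 6 h. Of all genes tested 22.8% were lower and 15.1% higher. None of the 10 was higher, also at an unadjusted p under 0.05 by limma. The 4 and 6 h arrays are single arrays of different times and were averaged, and the fit assumes that they vary as the duplicates do. On the 4 h array 19.9% of genes lay more than 0.5 log2 units from the mean of 2 and 6 h. Only the 26 h array, on which Stag2 read 105, had a larger share.

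The paralogue Stag1 did not pass at 4 and 6 h, with 120.4 and 109 against 111 and 149 at 0 h (log2 -0.16 ± 0.17, limma adjusted p = 0.484). Stag1 was highest at 14 h (181) and lowest at 26 h (91.2), and in unsynchronised cells it read 177 and 172, above both 0 h arrays, and missed the threshold (log2 0.44 ± 0.17, limma adjusted p = 0.0554). It passed with a variance trend (limma adjusted p = 0.0429) and without 0 h replicate 2 (log2 0.66, limma adjusted p = 0.01), when its 24 h change passed too (log2 0.50, limma adjusted p = 0.043). Whether Stag1 and Stag2 differed in their early change was not tested. At 12, 18 and 24 h Stag2 lay between 162 and 217 and passed in no comparison.

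Pds5a and Pds5b, the HEAT-repeat proteins that both WAPL and sororin bind, passed in no comparison over all arrays. Pds5a lay between 276 and 485 over the course, with its highest value at 8 h, and its 24 h change was log2 0.10 ± 0.18 (95% interval -0.29 to 0.49, limma adjusted p = 0.726). Pds5b lay between 122 and 216, with 209 and 141 at 0 h and 215 and 166 at 24 h, which overlap (log2 0.14 ± 0.20, 95% interval -0.32 to 0.59, limma adjusted p = 0.665). The starved duplicates lay 0.53 and 0.57 log2 units apart for Pds5a and Pds5b. Without 0 h replicate 1, Pds5a was higher in unsynchronised cells (log2 0.57 against 0.30 with both, limma adjusted p = 0.0185), and without 0 h replicate 2, Pds5b was lower at 4 and 6 h (log2 -0.75 against -0.46, limma adjusted p = 0.0124).

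Nipbl, the loader, passed in no comparison with the fit used throughout, and its calls moved with the setting. It read 334 and 196 at 0 h, 277 at 1 h, 148 at 6 h, 176 and 185 at 12 h, and 242 and 190.0 at 24 h. The 12 h arrays, and those at 18 h (167 and 194), lay below both starved arrays, and the changes did not pass (log2 -0.50 ± 0.23 and -0.51 ± 0.23, limma adjusted p = 0.119 and 0.117). At 4 and 6 h, with 189 and 148, both arrays were again below both starved arrays (log2 -0.61 ± 0.23, limma adjusted p = 0.0557), and this change passed with median centring (log2 -0.65, limma adjusted p = 0.0423), with a variance trend (0.0389) and with a replicate block (0.033). The starved duplicates of Nipbl differed by 0.77 log2 units, and 5.51% of genes tested differed more. Without 0 h replicate 2, Nipbl was lower at 12 h (log2 -0.89, limma adjusted p = 0.00512), at 18 h (-0.90 and 0.0049), at 24 h (-0.64 and 0.0253), in unsynchronised cells (-0.77 and 0.00761) and at 4 and 6 h (limma adjusted p = 0.00227). Without replicate 1, the change at 12 h was log2 -0.12 (limma adjusted p = 0.68). At 24 h it was then log2 0.13 (limma adjusted p = 0.871), so both the call and, at 24 h, the direction rested on the starved array used.

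Counted by comparison, 3 of the 10 genes were higher at 18 h (Cdca5, Esco2 and Rad21), where 15.7% of all genes tested were higher and 14.7% lower. At 24 h 4 were higher, with Smc1a, where 14.5% of all genes were higher and 12% lower. In unsynchronised cells 5 were higher, with Smc3, where 21.7% were higher and 21% lower. None of the 10 was lower in these comparisons by limma, and at an unadjusted p under 0.05 the lower genes numbered 1 at 18 h (Nipbl) and 0 in the other comparisons. The median change of the 10 genes was log2 0.14 at 12 h, 0.33 at 18 h, 0.32 at 24 h and 0.43 in unsynchronised cells. Over all genes tested it was 0.08, 0.00, 0.02 and 0.01. Esco2 is among the higher genes at 18 h, at 24 h and in unsynchronised cells. It passed the minimum of 20 only through the groups in which it was high. Its 0 h values, under 20, enter these medians as read. With values under 20 set to 20 its rises still passed (limma adjusted p = 0.000323, 0.00168 and 0.000321). Between 24 h and unsynchronised cells none of the 10 passed by limma, and 1 did at an unadjusted p under 0.05 (Cdca5), where 3.01% of all genes tested were higher and 1.56% lower.

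**Figure D2:**
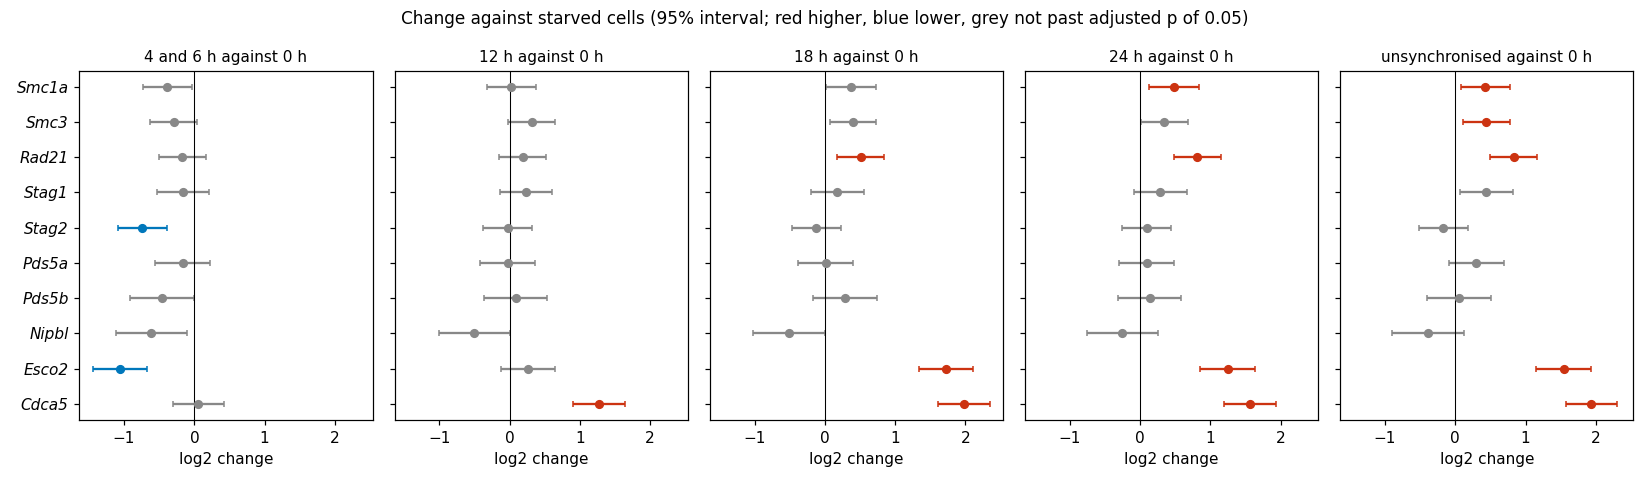
Change of each gene against 0 h on the log2 scale with its 95% interval from the limma fit, red where higher and blue where lower at an adjusted p under 0.05, grey otherwise. Cdca5 was red in 4 panels, Esco2 in 3 and Rad21 in 3, and the panels share the same 2 starved arrays.

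The order of the rises was read from the time at which each interpolated log2 profile passed midway between its lowest value up to 10 h and its highest value from 10 h to 24 h. For the 4 genes that were higher at 24 h it was 10.4 h for Cdca5, 11.7 h for Esco2, 13.0 h for Rad21 and 14.4 h for Smc1a. With replicate 1 of each duplicated group it was 10.6, 12.3, 13.7 and 14.4 h, and with replicate 2 10.4, 11.4, 12.5 and 11.7 h. Cdca5 kept the earliest and Rad21 followed Esco2 in both, whereas Smc1a moved ahead of Rad21 with the second replicates. On linear intensities the times were 11.9, 14.0, 13.9 and 15.2 h, where Esco2 and Rad21 change places. The log2 midpoint of Esco2 is measured from 5.36 at 6 h, under the minimum of 20, where values have no measured size. Its place among Cdca5, Rad21 and Smc1a is therefore not settled. For the other 6 genes the midpoint fell between 0.88 h and 7.74 h, at single arrays of 1 to 8 h.

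Likeness to genes of known phase is given as a description over the 24 arrays, which all the profiles share. Cdk1, the mitotic kinase, was matched most closely by Rad21 (Pearson r = 0.95), Cdca5 (0.94) and Esco2 (0.93). Nipbl had r = -0.18. For Brca1, a gene of S phase, r was 0.92 for Esco2, 0.85 for Cdca5, 0.83 for Smc3 and 0.79 for Rad21. With Cdc25a, a phosphatase of the G1/S transition, the highest r was that of Cdca5 (0.69). These values include the single 26 h array. Without that array r with Brca1 was 0.94 for Cdca5 and 0.85 for Smc3. With Cdk1 it was then 0.95 for Esco2 and 0.70 for Stag1, against 0.49 for Stag1 over all arrays. The order of the members by r therefore rests in part on 1 array. The nearest 3 genes of Rad21 were Nek2, Dbf4 and Tpx2 (r from 0.97), those of Esco2 were Kntc1, Top2a and Fancd2 (from 0.97) and those of Cdca5 were Lin9, Incenp and H2bc18 (0.95). Smc3 was nearest to Ppwd1 (0.94), Pds5b to Atm (0.93), Smc1a to Cdk5rap2 (0.91), Pds5a to Psmd14 (0.89), Nipbl to Setd2 (0.88), and Stag1 and Stag2 to Hnrnpul2 and Bclaf1 (0.87). Among the 10 genes themselves, Esco2 and Rad21 had the highest r (0.88), next to Esco2 and Cdca5 (0.87), and Nipbl and Cdca5 the lowest (-0.41). The 26 h array, on which Esco2 was low and Cdca5 high, is included here too.

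On the 26 h array 9 of the 10 genes were below the mean of 24 and 28 h, from -0.19 log2 units for Rad21 to -0.97 for Esco2, and Cdca5 was 0.67 above it. The median over all genes tested was -0.19, so Rad21 lay at the middle of all genes, Esco2 was lower than all but 3.23% and Stag2 lower than all but 4.76%. Cdca5 was higher than 98.2%. There was 1 array of 26 h, which entered the F test over times.

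**Figure D3:**
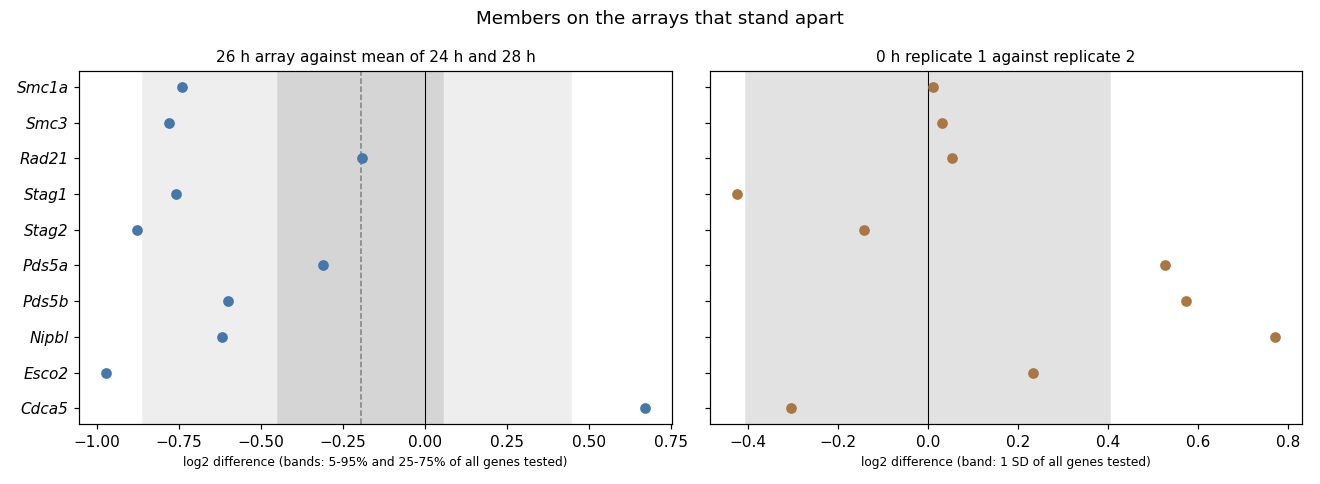
Left, log2 difference of the 26 h array from the mean of 24 and 28 h for each of the 10 genes, with bands for 5% to 95% and 25% to 75% of all genes tested and a dashed line at their median. Right, log2 difference of 0 h replicate 1 from replicate 2 with a band of 1 SD over genes (0.41). Nipbl, Pds5a, Pds5b and Stag1 lie outside the band, and 5.51%, 15.9%, 13.1% and 24.5% of genes tested differed more than they did.

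Related genes were read in the same fit. The cohesin subunits of meiosis, Smc1b, Stag3, Rec8 and Rad21l, reached no more than 6.90 on any array and were not tested. Among other loading, release and acetylation factors, Mau2, Wapl, Hdac8 and Esco1, none passed at 12 or 24 h by limma (0 also at an unadjusted p under 0.05). Wapl, the release factor that sororin counters, was 1.44-fold higher in unsynchronised cells (log2 0.52 ± 0.17, limma adjusted p = 0.0265). Esco1, an acetyltransferase that acts throughout the cell cycle, was lower at 18 h (log2 -0.63 ± 0.18, limma adjusted p = 0.0251). Esco2 was then 3.30-fold higher, or 2.41-fold with values under 20 set to 20. Hdac8, which removes the acetyl group from SMC3, was lower at 4 and 6 h (log2 -0.61 ± 0.17, limma adjusted p = 0.0153), between 13.4 and 27.9 over all arrays.

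Of the factors that set up cohesion at replication forks, 4 of 6 tested were higher at 12 h, 5 of 6 at 18 h and 4 of 6 at 24 h, with a median of log2 0.90, 1.36 and 0.99. Of all genes tested 18.9%, 15.7% and 14.5% were higher at these times. Clspn, the fork protection adaptor, was 5.17-fold higher in unsynchronised cells than at 0 h (limma adjusted p = 1.2e-05). Wdhd1, which links helicase and polymerase, was 4.46-fold higher at 18 h and Timeless 2.67-fold (limma adjusted p = 7.94e-05 and 0.000663). The helicase Ddx11 was 2.45-fold higher at 18 h (limma adjusted p = 0.000159). Clspn, Timeless and Ddx11 read as low as 10.6, 8.83 and 9.18 on some arrays, under the minimum. Their folds, and the counts of this list, therefore rest in part on dim values. From 12 h to 24 h none of the 6 passed by limma (1 at an unadjusted p under 0.05).

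Of the genes that protect or cut cohesin in mitosis, 2 of 9 tested were higher at 12 h (Aurkb and Cdk1), 7 at 18 h, when 1 was lower, and 7 at 24 h. Against the shares of all genes just given, the count at 12 h was near the background. Between 12 h and 24 h 6 of the 9 rose, where 1.9% of all genes did, and the median over all 9 was log2 1.05. Espl1, which encodes separase, was 3.28-fold higher at 24 h than at 0 h, and Aurkb and Cdk1 were 4.13-fold and 3.47-fold higher in unsynchronised cells (limma adjusted p = 0.000174, 2.4e-05 and 1.24e-05). Bub1, a kinase that marks centromeres for the protection of cohesin, fell to 0.25 of its 0 h level at 4 and 6 h (log2 -2.002 ± 0.29, limma adjusted p = 0.000437). Espl1 and Bub1 read as low as 9.88 and 14.3, under the minimum, so these folds too rest in part on dim values. Sgo1, Sgo2a and Haspin read as low as 7.81, 10.5 and 5.07. The counts of this list therefore rest in part on genes that were dim on some arrays. Ctcf and Yy1, which anchor loops, passed in no comparison with 0 h by limma (1 of these 2 had an unadjusted p under 0.05, in unsynchronised cells).

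The other SMC complexes were read alongside. All 7 condensin genes tested were higher at 18 h, with a median of log2 1.54 against 0.33 for the 10 cohesin genes, and 6 of 7 at 24 h (median 1.49 against 0.32), where 15.7% and 14.5% of all genes tested were higher. Ncapg2 was 4.91-fold and the ATPase Smc2 3.52-fold higher in unsynchronised cells (limma adjusted p = 5.64e-05 and 2.88e-05). Ncapg2 read as low as 13.7 on some arrays. Ncapd2 was 3.19-fold higher at 24 h and Ncaph 2.90-fold at 18 h (limma adjusted p = 9.21e-05 and 0.000122). Of 8 genes of SMC5/6, a complex of DNA repair, 3 were higher at 24 h (median 0.31), beside the same 14.5%. Slf1, Nsmce4a and Smc5 were 2.82-fold, 2.13-fold and 1.97-fold higher in unsynchronised cells (limma adjusted p = 4e-04, 0.000291 and 0.000204), with Slf1 as low as 8.86 on some arrays, and Smc6 fell at 4 and 6 h (log2 -0.87 ± 0.15, limma adjusted p = 0.00134). These lists were not tested against each other.

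**Figure D4:**
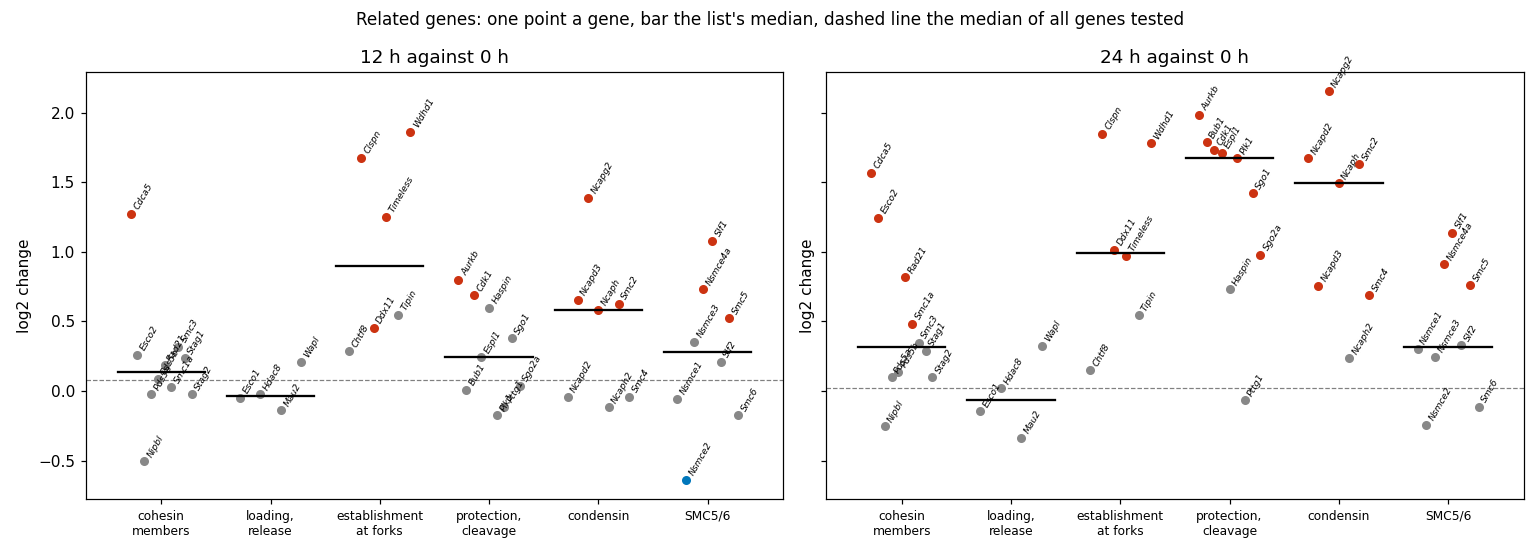
Change on the log2 scale at 12 h (left) and 24 h (right) against 0 h for the cohesin genes and 5 related lists, 1 point per gene, red where higher and blue where lower at a limma adjusted p under 0.05, with a bar at each list's median and a dashed line at the median of all genes tested. At 24 h the median was 0.32 for the cohesin genes, 0.99 for fork factors, 1.67 for mitotic factors and 1.49 for condensin.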

How the data were processed

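The platform was the Affymetrix Mouse Gene 2.0 ST array, 24 in all. The authors checked array quality with ArrayQualityMetrics and normalized all arrays by RMA in the oligo package (versions: not given in the sources used here). As deposited, the values are linear intensity (1.74 to 6335), although a file header names log2, and the 2 deposited tables are identical. Their minimum of 20 had not been applied to the deposited intensities.

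The annotation gave 1 gene to 23521 of 41345 probe sets, several to 1820, and did not list 16004, which are unnamed here. Log2 intensities of 9908 genes (intensity of 20 or more in at least 2 arrays, the probe set with the highest mean per gene) were fitted with limma 3.58.1 (R 4.3.3), using 1 mean for each of 19 groups, no replicate block, and 5 residual and 5.58 prior degrees of freedom. Groups with 1 array are assumed to vary as the duplicates. Tests were two-sided, with Benjamini-Hochberg adjustment over all genes at 0.05. In simulated data, 38 of 50 genes raised by 1 log2 unit between 0 h and 24 h were called, and 3 of 50 raised by 0.5. Far fewer genes were changed there than were called at 24 h in the real data (14.5% higher and 12% lower). The adjustment was therefore stricter in the simulation, and its counts do not give the power of the real comparison. The number of arrays limits the precision.

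Named were all 10 members, up to 4 genes of each related list by size of change among those past the threshold against 0 h, the 3 nearest genes of each member and 3 genes of known phase. Others were named after their values were seen. The members and lists were chosen with earlier results of these data known. Alternatives were other minima, all probe sets, median centring, renewed quantile normalization, a variance trend, a 2-fold threshold, a floor of 20, only the groups compared, a replicate block and each duplicate left out. Omission of the 26 h array was added after the data were seen. Python 3.11.15, pandas 2.3.3 and matplotlib 3.10.9 were used for sequences and figures.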

Additional observations from a re-analysis of the deposited data

How the results depend on the processing

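The rises of Cdca5 at 12, 18 and 24 h and of Esco2 at 18 and 24 h, those of Rad21 at 24 h, those of all 3 in unsynchronised cells, and the fall of Stag2 at 4 and 6 h passed by limma under every alternative run for them, apart from the 2-fold requirement, which Rad21 and Stag2 did not meet. Deviations from the group means, taken by replicate number, correlated between -0.37 and 0.22 over 10 pairs of groups, with 3 above 0.1. The replicate numbers as labelled thus gave no common pairing of the arrays. A pairing under other labels was not tested. With the replicate number as a block 1 gene was higher at 24 h than at 12 h in place of 2. Smc1a was lost at 24 h and in unsynchronised cells (limma adjusted p = 0.0625 and 0.0656), as was Rad21 between 12 and 24 h (0.0604), and Nipbl was lower at 4 and 6 h (log2 -0.72, limma adjusted p = 0.033). Higher in unsynchronised cells than at 0 h were 3 genes in place of 5 with no minimum, with median centring or with only the groups compared, and 2 with a 2-fold change required. Between 12 h and 24 h, 1 gene was higher in place of 2 under those first 3 settings, with all probe sets or with a floor of 20, and 0 with the 2-fold requirement. With that requirement 2 genes in place of 4 were higher at 24 h and 1 in place of 2 lower at 4 and 6 h, where the floor of 20 also left 1 (Stag2). With 1 duplicate array left out, 1 gene was higher at 12 h in every fit, and the counts ran from 2 to 3 at 18 h, 3 to 4 at 24 h, 3 to 5 in unsynchronised cells and 0 to 2 between 12 and 24 h. The counts of lower genes ran from 0 to 1 at 12, 18, 24 h and in unsynchronised cells, and from 2 to 4 at 4 and 6 h. Each upper value arose without 0 h replicate 2, where Nipbl was lower in all 5 comparisons and Pds5b also at 4 and 6 h. The genes that varied over time numbered 5 to 8. The causes were not tested. The comparison of 4 and 6 h was not fitted with only its groups, of which 4 h and 6 h have 1 array each. Changes near 0.5 log2 units, such as those of Smc1a and Smc3, lie at the limit of 2 arrays per group, and Esco2 before 14 h lies near background.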
